A study of Mus musculus with 6 samples.

Results

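The genes that mark and specify GABAergic neurons of the midbrain were followed in the developing midbrain of mice in which Lmx1b was deleted in Pitx3-expressing cells. The group holds 9 genes that were chosen by name for their known roles, out of 26852 genes in the deposited table. They are Gad1, Gad2 and Slc32a1, which make and package the transmitter GABA, and the transcription factor genes Gata2, Gata3, Tal1, Tal2, Helt and Sox14. All 9 were found in the table and all 9 passed the minimum mean normalized count of 10, as did 16680 genes in all. RNA was taken from dissected midbrain of embryos at E14.5 on a C57Bl/6 background, collected from 4 litters. The Lmx1b cKO group was Lmx1b fl/fl with Pitx3-Cre, the control group was Lmx1b wt/wt with Pitx3-Cre, and each group had 3 libraries of 2 pooled embryos. Both groups carried Pitx3-Cre, an allele in which Cre is driven from the Pitx3 locus. The study writes both as Pitx3Cre/+ and speaks of the loss of a Pitx3 allele, which the controls therefore shared. With Cre at this locus, recombination was directed to mesodiencephalic dopaminergic (mdDA) neurons and not to the GABAergic neurons around them. The comparison of both genotypes thus asked whether transcripts of a neighbouring neuron class differed in the whole dissected tissue.

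GABAergic neurons release GABA, the main inhibitory transmitter of the brain, and in the midbrain they lie next to mdDA neurons and contact them. GABA is made from glutamate by the glutamate decarboxylases and is loaded into synaptic vesicles by a single vesicular transporter. As midbrain progenitors leave the cell cycle, Helt and the zinc finger factor Gata2 are needed for the GABAergic over the glutamatergic choice, and Gata3, Tal1 and Tal2 act in the postmitotic precursors, while Sox14 marks a subset of these neurons. GATA and TAL proteins can work in one complex with LIM-only and LDB adaptor proteins, as they do in blood cell precursors. Dissected tissue was measured as a whole, so fewer cells of a type and less RNA per cell cannot be told apart in any value below.

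The deposited table gives a mean per genotype, from which the reads of each library were worked back for 98.1% of genes. The libraries are called cKO a, b and c and control a, b and c, letters that only name them and do not tie them to particular samples. They held 20629683 to 25051860 recovered reads each. Lmx1b itself was read at 1257, 1401 and 1455 normalized counts across cKO a to c, against 1368, 1352 and 1474 across control a to c, a log2 difference of -0.03 (SE 0.074) that did not pass the test, so that its total read count does not check the genotype labels. Library cKO c stood apart in a list of 7 bone and mesenchyme genes, which summed to 13997 normalized counts there and to 725 to 2326 in the other 5 libraries. Because each library was made from pooled embryos, p-values measure the spread between these pools.

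Gad1 encodes the glutamate decarboxylase that supplies GABA through the whole cell. It lies on chromosome 2 at chr2:70553072-70602014 on the plus strand (GRCm38), 36.9 Mb from Lmx1b. It was read at 6595, 6195 and 6194 normalized counts across cKO a to c, against 6027, 6767 and 5889 across control a to c. The 3 cKO values all lay inside the control range. The group means were 6328 ± 231 and 6227 ± 472 (SD, n = 3 each), a log2 difference of 0.03 with a 95% interval of -0.10 to 0.15, where positive is higher in the cKO. That interval spans 0.933 to 1.11 times the control level, and neither limma (p = 0.662) nor an exact two-sided permutation test (p = 0.8) called a difference.

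Gad2, the decarboxylase found largely at nerve terminals, maps to chr2:22622205-22693874 on the plus strand, 10.9 Mb from Lmx1b. It was read at 6404, 6662 and 6659 normalized counts across cKO a to c, against 6139, 6916 and 5649 across control a to c. The controls held both the highest and the lowest value, and their SD of 639 was wider than the SD of 148 in the cKO group. The log2 difference was 0.08 (SE 0.065, 95% interval -0.06 to 0.22), and it passed neither limma's test (p = 0.249) nor the exact permutation test (p = 0.4). Without control b the log2 difference was 0.15 with an unadjusted p of 0.0161, at which 3.48% of all genes then had a p under 0.05, and its limma adjusted p stayed at 1.00. Without control c the Gad2 difference shrank to 0.014, so its size moved both ways with the library left out. Slc32a1 encodes VGAT, the transporter that fills vesicles with GABA and, in other neurons, with glycine. It lies at chr2:158610767-158615748 on the plus strand, and its exons share 697 bases with Gm14205 on the opposite strand. It was read at 2319, 2712 and 2154 normalized counts across cKO a to c, against 2202, 2583 and 2530 across control a to c. Here the cKO libraries held both extremes. The log2 difference was -0.03 (SE 0.087, 95% interval -0.22 to 0.16, limma p = 0.770, exact permutation p = 0.9), so that a change of the transporter within 0.860 to 1.12 times the control level lies inside the interval.

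**Figure D1:**
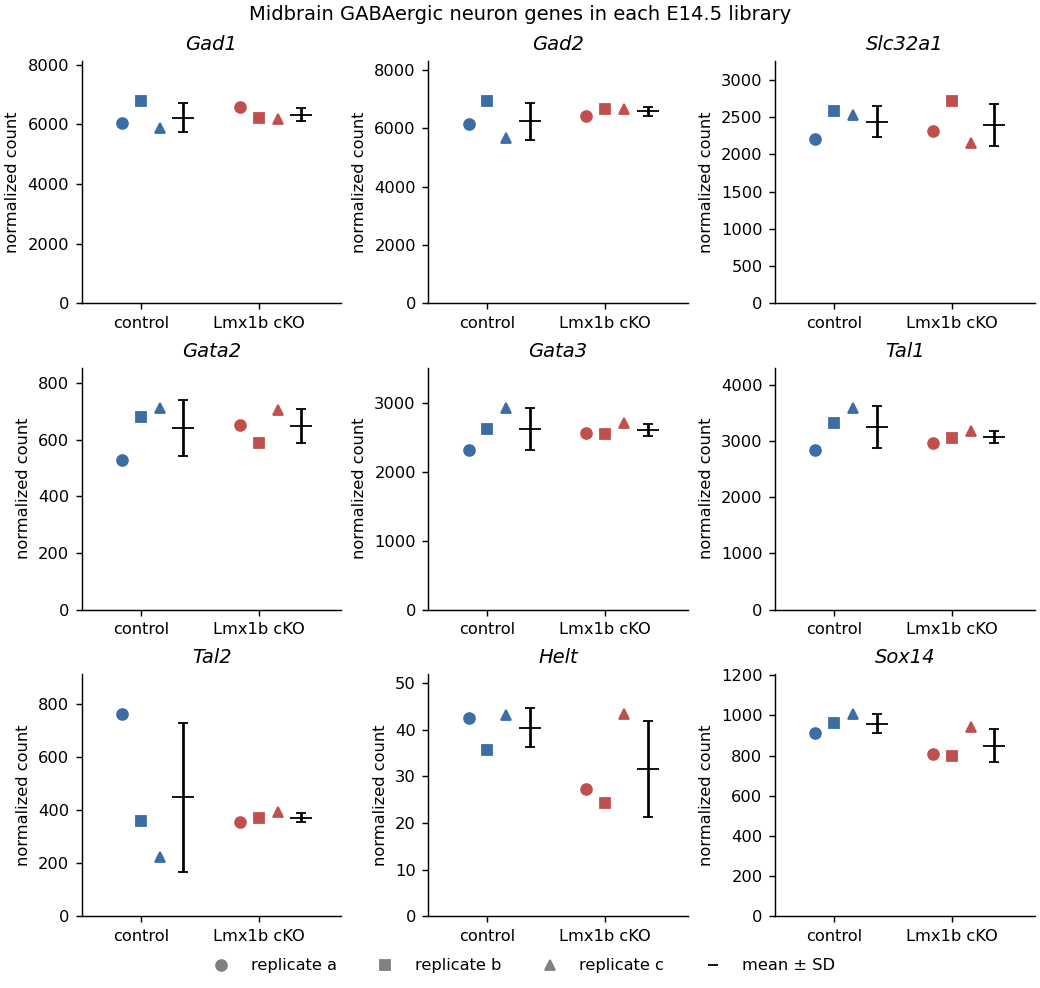
Normalized count (vertical axis, starting at 0, own scale per gene) of each of the 9 genes in each library of the Lmx1b cKO and control groups. Points are libraries and the bars give the mean and SD of 3 libraries. The groups overlap for all 9 genes, and the widest spread among those with a mean of at least 100 is that of Tal2 in the controls, from 225 to 762.

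Among the selector genes, Tal1 and Tal2 encode closely related helix-loop-helix factors that bind E-box letters together with a partner, and Sox14 encodes an HMG-box factor. The 250 bases before the start of these 3 genes are shown because Tal1 and Tal2 differed in how they varied between libraries and Sox14 had the smallest p of the 9 genes. They are RefSeq promoter sequence on GRCm38.p6, read 5′ to 3′ on the strand of the gene, and capitals mark letters of the GATA hexamers on either strand, the E-box CANNTG or TATAAA. The GATA hexamers searched were AGATAA with its variant AGATAG, and the forms that start with T, which are TGATAA with its variant TGATAG, and none of these motifs overlaps another in the windows shown. The windows are chr4:115056176-115056425 on the plus strand for Tal1, chr4:53779451-53779700 on the plus strand for Tal2 and chr9:99876171-99876420 on the minus strand for Sox14.
Tal1: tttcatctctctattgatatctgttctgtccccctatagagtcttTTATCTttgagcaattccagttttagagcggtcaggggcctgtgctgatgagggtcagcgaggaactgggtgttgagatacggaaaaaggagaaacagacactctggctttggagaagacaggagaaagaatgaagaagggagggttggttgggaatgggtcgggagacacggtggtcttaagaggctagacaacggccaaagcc
Tal2: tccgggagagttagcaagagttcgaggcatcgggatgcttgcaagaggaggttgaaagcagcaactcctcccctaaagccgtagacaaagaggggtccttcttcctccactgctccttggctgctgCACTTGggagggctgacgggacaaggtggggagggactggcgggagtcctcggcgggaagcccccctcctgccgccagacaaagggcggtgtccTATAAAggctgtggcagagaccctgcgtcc
Sox14: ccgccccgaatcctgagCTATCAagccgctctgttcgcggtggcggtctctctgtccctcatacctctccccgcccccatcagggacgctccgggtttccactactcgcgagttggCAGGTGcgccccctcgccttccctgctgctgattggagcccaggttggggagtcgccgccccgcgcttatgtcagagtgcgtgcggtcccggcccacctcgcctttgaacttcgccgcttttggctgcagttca

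The Tal1 window held a GATA hexamer 205 bases before the start and no E-box, the Tal2 window an E-box at 124 bases and TATAAA at 30 bases, and the Sox14 window a GATA hexamer at 233 and an E-box at 134 bases. Tal1 also has a later RefSeq start, whose window at chr4:115057561-115057810 held none of these motifs. Counting the first RefSeq start of each gene, a GATA hexamer was present in 3 of the 9 windows (Slc32a1, Tal1 and Sox14), as it was in 26.5% of 32851 promoter windows of this length. An E-box was present in 6 of 9, beside 66.2% of all windows, and the windows of Gata2 and Gata3 held neither. The E-box form CAGATG, which is one case of CANNTG, stood only in the window of Gad2 among the 9, beside 14.4% of all windows. TATAAA was present in the windows of Gad1 and Tal2, beside 12.4% of all. These matches describe letters only and do not show that a factor binds there.

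Gata2 encodes the zinc finger factor that sets the GABAergic choice in newly formed midbrain precursors. It lies at chr6:88193891-88207032 on the plus strand and was read at 653, 589 and 707 normalized counts across cKO a to c, against 530, 682 and 713 across control a to c. The lowest and the highest value were both controls. The log2 difference was 0.04 (SE 0.122, 95% interval -0.23 to 0.30, limma p = 0.772, exact permutation p = 1.0). Gata3, which acts beside and after Gata2 in these neurons, lies at chr2:9857078-9890034 on the minus strand, 23.7 Mb from Lmx1b, and its exons share 155 bases with Gm13256 on the opposite strand and 77 bases with 9230102O04Rik on the same strand. It was read at 2560, 2546 and 2712 normalized counts across cKO a to c, against 2315, 2617 and 2929 across control a to c. All cKO values lay between the lowest and the highest control. Its log2 difference of 0.00 (SE 0.078, 95% interval -0.17 to 0.17, limma p = 0.972, exact permutation p = 1.0) was the smallest of the 9 genes in size, and its sign turned negative under 2 other scalings of the libraries. The interval leaves room for a Gata3 level of 0.890 to 1.13 times the control.

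Tal1 lies at chr4:115056426-115071755 on the plus strand and was read at 2969, 3044 and 3182 normalized counts across cKO a to c, against 2839, 3309 and 3587 across control a to c. Control a was the lowest of all 6 libraries and control c the highest. The log2 difference was -0.07 (SE 0.078, 95% interval -0.24 to 0.10, limma p = 0.372, exact two-sided permutation p = 0.6). Both of these controls moved the Tal1 value. Without control c the log2 difference was 0.00032, and without control a it was -0.17 with an unadjusted p of 0.0173, where 3.81% of all genes had a p under 0.05, and the limma adjusted p was 0.994. Tal2, needed in the mouse for GABAergic neurons of the dorsal midbrain, lies at chr4:53779705-53788712 on the plus strand. It was read at 355, 370 and 392 normalized counts across cKO a to c, against 762, 357 and 225 across control a to c. The controls ran from well above to well below the cKO libraries, with a highest value 3.39 times the lowest, whereas the cKO libraries ran only from 355 to 392. The log2 difference was -0.14 with a wide 95% interval of -0.85 to 0.58 (limma p = 0.684, exact permutation p = 0.9), so that a level between 0.556 and 1.49 times the control lies inside it. Without control a it was 0.37, and without control c it was -0.51. Taken as the ratio of the deposited means it was -0.27.

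Helt, a hairy-related repressor used by progenitors of the midbrain, was the weakest of the 9 genes. It lies at chr8:46292039-46294671 on the minus strand, and its reads came to between 23 and 48 per library. It gave 27.2, 24.3 and 43.3 normalized counts across cKO a to c, against 42.5, 35.5 and 43.2 across control a to c. Both lowest values were cKO libraries, but cKO c was the highest of all 6. The log2 difference was -0.40 (SE 0.332, 95% interval -1.12 to 0.33, limma p = 0.256, exact permutation p = 0.4), an interval that spans 0.459 to 1.26 times the control level. Sox14 lies at chr9:99874106-99876170 on the minus strand, was read at 809, 796 and 943 normalized counts across cKO a to c, against 910, 963 and 1006 across control a to c, and had the smallest p of the group. Its means of 849 ± 81.2 and 960 ± 47.6 (SD, n = 3 each) gave a log2 difference of -0.18 (SE 0.087, 95% interval -0.37 to 0.01). Library cKO c lay above control a, so the groups overlapped, and neither limma (unadjusted p = 0.0636, adjusted p = 1.00) nor the exact two-sided permutation test (p = 0.2) called a difference. Without cKO c, the library rich in bone and mesenchyme reads, the log2 difference of Sox14 was -0.25 by limma (unadjusted p = 0.0179, adjusted p = 1.00), where 3.47% of all genes had an unadjusted p under 0.05. Without control a it was -0.22 (limma unadjusted p = 0.0435, adjusted p = 0.994), where 3.81% of all genes did. With each of the 6 libraries left out in turn, the Sox14 difference ran from -0.25 to -0.14.

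Set side by side, the 9 genes gave 4 positive and 5 negative log2 differences, with a median of -0.03 beside a median of -1.33e-05 over all genes tested. Only Gad2, Helt and Sox14 kept their sign with each library left out in turn. By limma with Benjamini-Hochberg adjustment, 0 of the 9 were called, as were 0% of all 16680 genes. At an unadjusted p under 0.05 there were also 0 of 9, beside 2.79% of all genes (466 genes). Likewise 0 of 9 had groups that did not overlap, beside 7.67% of all genes. With 3 libraries against 3 the permutation test cannot go below 0.1. What the data do give is a bound on each gene: the 95% intervals of Gad1 and Gad2, the most deeply read genes, were the narrowest, and those of Tal2 and Helt the widest. For the neurons in which the deletion was placed, 1 of 12 mdDA genes was higher and 4 were lower at an unadjusted p under 0.05 in limma, beside 1.18% and 1.61% of all genes. Their median log2 difference was -0.20, and ran from -0.26 to -0.090 with 1 library left out. The study reported Aldh1a1, En1 and En2, all in that list, among its most regulated genes from these libraries. The count is therefore not independent of that report. Of 6 tested pan-neuronal genes 0 were higher and 0 lower, with a median of -0.01. That list had 12 genes, and those not tested were read too strongly for the search that recovered library values.

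**Figure D2:**
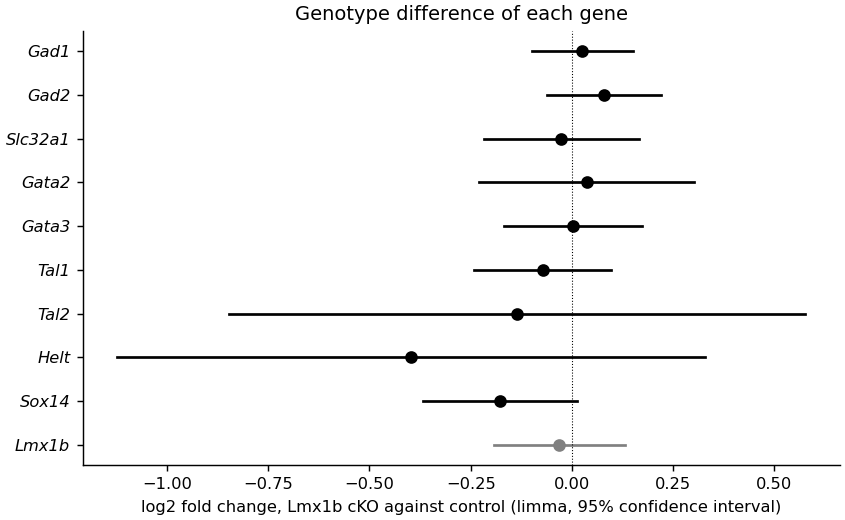
Log2 difference of each gene, cKO minus control (horizontal axis), from limma with 95% intervals over 3 libraries per group. All 9 intervals include 0; that of Sox14 ends at 0.01, and the sign of Gata3 depends on how the libraries were scaled.

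Levels between genes were compared per kilobase of exon, as the mean normalized count per kb over all 6 libraries. The length counts every annotated exon of a gene, and can exceed that of the transcripts made in this tissue. It was 7639 bases for Gad1, 5876 for Gad2 and 2797 for Slc32a1, so the order of levels depends on it. Gad2 was the highest at 1090 per kb, above the level of 93.6% of tested genes, and Slc32a1 and Gad1 followed at 864 and 822 per kb. The transmitter genes were thus among the strongly read genes of this tissue. Gad2 exceeded Slc32a1 in 6 of 6 libraries, but Slc32a1 exceeded Gad1 in only 3 of 6, so these neighbours were not ordered. Of the selectors, Tal1 and Gata3 had 721 and 657 per kb and kept that order in 6 of 6 libraries although their ranges overlapped, while Gad1 exceeded Tal1 in 5 of 6. Sox14 followed at 438 per kb, below Gata3 in every library, and a step of 3.17-fold led down to Tal2 at 138 per kb. Tal2 and Gata2 (120 per kb, 119.6 before rounding) were not ordered, with Tal2 higher in 3 of 6 libraries. Helt closed the order at 17.9 per kb, 6.68-fold under Gata2 and above only 15.8% of tested genes. Within both factor families one member thus exceeded its relative in every library, Gata3 over Gata2 and Tal1 over Tal2.

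**Figure D3:**
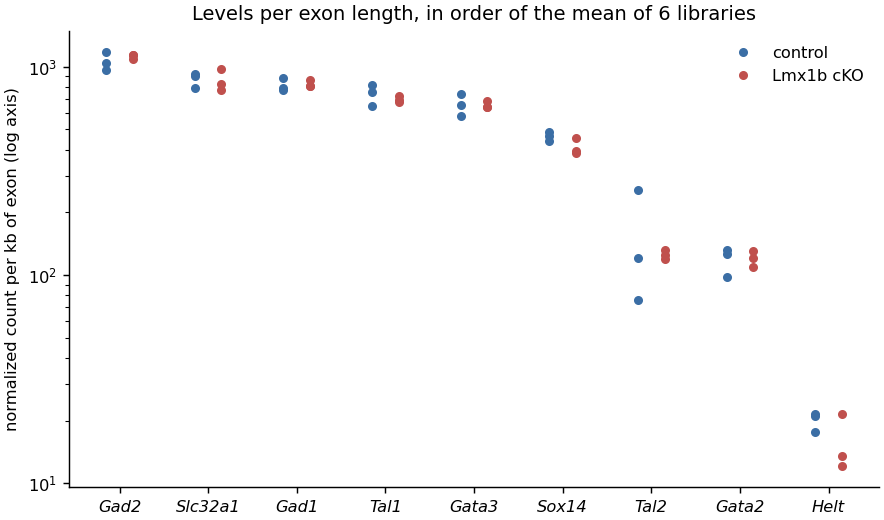
Normalized count per kb of exon (logarithmic axis) for the 9 genes in order of their mean, with 1 point per library coloured by genotype. Gad2, Slc32a1 and Gad1 lie highest and Helt lowest, and the ranges over 6 libraries are apart only between Gata3 and Sox14, Sox14 and Tal2, and Gata2 and Helt among neighbours.

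Ratios within a library do not depend on how the libraries were scaled, and 4 of them were compared by genotype. Their size depends on the exon lengths used, but their comparison between genotypes does not. The Gad2 to Gad1 ratio per kb was 1.26, 1.40 and 1.40 across cKO a to c, against 1.32, 1.33 and 1.25 across control a to c. The 2 genes of 1 enzyme family thus kept a ratio of 1.25 to 1.40 in all 6 libraries, and the groups overlapped (exact two-sided permutation p = 0.3). The Slc32a1 to Gad1 ratio was 1.04 ± 0.139 in the cKO and 1.07 ± 0.091 in the controls (SD, n = 3 each, exact permutation p = 0.6). The Gata3 to Gata2 ratio was 5.47 ± 0.355 and 5.57 ± 0.361 (SD, n = 3 each, exact permutation p = 0.8). The Tal1 to Tal2 ratio was 5.67, 5.59 and 5.51 across cKO a to c but 2.53, 6.28 and 10.8 across control a to c. Its means were not called different by the exact permutation test (p = 0.7), and the controls spread far more than the cKO libraries did. Adjusted over the 4 ratios, each p was 0.8.

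How the genes varied between libraries was described by the deviation of log2(normalized count + 1) from each gene's mean over the 6 libraries. Gata2, Gata3 and Tal1 were all lowest in control a, at -0.28, -0.17 and -0.15, and all highest in control c, at 0.15, 0.17 and 0.19. Tal2 ran the other way, at 0.99 in control a and -0.77 in control c. Among 12447 genes with a mean of at least 100, ranked by the root mean square difference of their deviations from those of Gata3, Tal1 was number 21, with a difference of 0.042. The nearest genes outside the group were P3h4, Coq2 and Cdc42ep3 at 0.020, 0.022 and 0.028. Gata2 followed at number 496, Sox14 at 3675 and Tal2 at 12401, close to the end. Seen from Gad1, the nearest genes were Fam13c, 2610001J05Rik and Nfil3 at 0.013, 0.017 and 0.020, with Gad2 at number 1150 and Slc32a1 at 7677. The transmitter genes were thus less alike in their small deviations than Gata3 and Tal1 were. All of these are differences over the same 6 libraries, where many genes share a pattern, and they carry no test.

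The spread of Tal2 in the controls, an SD of 0.887 on the log2 scale, was exceeded by 0.233% of 12448 genes with a mean of at least 100, whose median was 0.0894. In the cKO libraries its SD was 0.071, below the median of 0.0931. No other of the 8 genes in the plot of deviations differed by more than 1.35-fold between its lowest and highest library. Ranked by likeness to Tal2, a ranking added after its values were seen, the nearest genes were Boc, F8 and Sema3a, at differences of 0.205 to 0.218, which are larger than those around Gad1 and Gata3. Control a, where Tal2 was highest, also had the highest sum of 8 cycling-cell genes, 6323 normalized counts beside 3475 to 5111 in the other 5 libraries. It also had the highest sum of glycinergic and hindbrain genes, 411 normalized counts beside 136 to 210. In control c, where Tal2 was lowest, neither sum was at its lowest, with 4269 normalized counts for the cycling-cell genes and 172 for the hindbrain genes. The part of either in the Tal2 values was not tested.

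**Figure D4:**
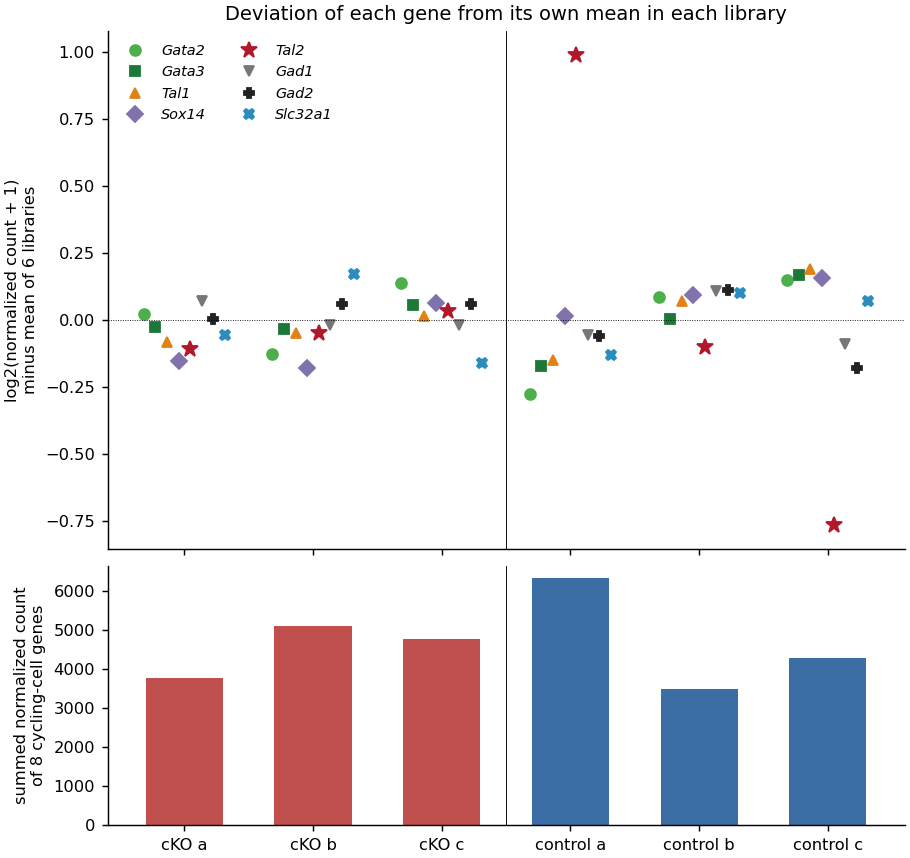
Upper panel, log2(normalized count + 1) minus the gene's mean over 6 libraries (vertical axis) for 8 of the 9 genes in each library, Helt being left out for its low counts; lower panel, summed normalized count of 8 cycling-cell genes. Gata2, Gata3 and Tal1 are low in control a and high in control c, and Tal2 lies at 0.99 and -0.77 in the same libraries.

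The other genes of GABA handling were read from a list of 10 for uptake and breakdown of the transmitter, supply of its precursor glutamine and chloride transport, on which the response to GABA depends. Of the 7 tested, 0 were higher and 0 lower at an unadjusted p under 0.05 in limma, beside 1.18% and 1.61% of all genes, and the median log2 difference was -0.04. Slc12a5, the chloride exporter that makes GABA inhibitory, averaged 8686 ± 374 normalized counts with the deletion and 8689 ± 1068 without it (SD, n = 3 each). GABA receptors form the receiving side of the synapse. Of 13 tested GABA receptor subunits and gephyrin, 0 were higher and 0 lower by the same measure, with a median of 0.02 that ran from -0.056 to 0.076 with 1 library left out.

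Proteins of the GATA and TAL families and their partners gave 0 higher and 0 lower among 15 tested genes at an unadjusted p under 0.05, beside 1.18% and 1.61% of all genes, with a median log2 difference of -0.06. Tcf4, an E protein with which TAL factors pair, averaged 6430 ± 482 normalized counts with the deletion and 6761 ± 1067 without it, and the adaptor gene Ldb1 had 6170 ± 350 and 5835 ± 116 (SD, n = 3 each). The TAL relative Lyl1, named after its values were seen, was the 1 gene of 15 in that list whose groups did not overlap, a share near the 7.67% of all genes, with 22.3 ± 3.99 and 39.4 ± 9.52 normalized counts (limma unadjusted p = 0.051, adjusted p = 1.00). Among 10 factors of progenitors and precursors of ventral GABAergic neurons, 1 was higher and 0 lower at an unadjusted p under 0.05, beside 1.18% and 1.61% of all genes. That gene was Lhx1, a LIM factor of midbrain GABAergic precursors and other neurons, at 4915 ± 351 and 4426 ± 116 normalized counts, a log2 difference of 0.15 (SE 0.057, limma unadjusted p = 0.025, adjusted p = 1.00). Meis2, which marks the same precursors, had 4367 ± 179 and 4129 ± 768 with overlapping groups.

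Peptides and calcium-binding proteins that divide GABAergic neurons into classes gave 0 higher and 3 lower of 12 tested at an unadjusted p under 0.05, beside 1.18% and 1.61% of all genes, with a median log2 difference of -0.04. That median ran from -0.15 to 0.024 with 1 library left out. Pvalb, the calcium-binding protein parvalbumin, averaged 20.2 ± 4.64 normalized counts with the deletion and 61.2 ± 2.95 without it (log2 difference -1.59, SE 0.325). Vip had 12.7 ± 1.41 and 24.6 ± 4.59, and Cck, a peptide gene also used by dopaminergic neurons, had 134 ± 13.3 and 173 ± 8.33. The groups did not overlap for these 3 genes, as for 7.67% of all genes, but the limma adjusted p was 1.00 for each, and Pvalb and Vip were read at low counts. For Cck at E14.5, the study reported no significant change by quantitative PCR and an unchanged pattern by in situ hybridization. The strongly read Reln, at 6101 ± 197 and 6068 ± 630, and Sst, at 1266 ± 255 and 1197 ± 177, were not called at either threshold.

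Several members are also used by other cells that a dissected midbrain can hold, so marker lists of those cells were read beside them. Gata2 and Tal1 are active in blood cell precursors and vessels. Of 10 tested erythroid genes, 2 were higher and 0 lower at an unadjusted p under 0.05 (Hbb-bs and Hba-a1), beside 1.18% and 1.61% of all genes, the list summed to 13847 to 18053 normalized counts in the cKO libraries and to 12555 to 17063 in the controls, and Gata1, the erythroid member of the family and named after its values were seen, had at most 5.62 normalized counts in any library. Endothelial genes gave 0 higher and 0 lower of 10 and summed to 6585 to 6863 and 6281 to 6930. Gata2 and Gata3 also act in serotonergic neurons, whose 4 genes gave 0 higher and 3 lower (beside 1.18% and 1.61% of all genes), Slc6a4 (log2 difference -1.23), Tph2 (-0.86) and Fev (-0.93), and summed to 347 to 617 in the cKO libraries and 646 to 796 in the controls. The parts of these cells in the values of Gata2, Gata3 and Tal1 were not tested.

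Gad1, Gad2 and Slc32a1 are shared by GABAergic neurons of every brain region. A list of forebrain GABAergic genes gave 5 higher and 0 lower of 11 tested at an unadjusted p under 0.05, beside 1.18% and 1.61% of all genes. Its median log2 difference was 0.37, and ran from 0.23 without cKO b to 0.57 without cKO a, and the list summed to 6597 to 9689 normalized counts in the cKO libraries and 5580 to 6262 in the controls. Dlx6, Lhx6, Dlx1 and Dlx5, which specify GABAergic neurons of the forebrain, had log2 differences of 0.60, 0.76, 0.37 and 0.70, and 0 of the 11 passed the limma adjustment. Gsx2, a defining gene of ventral progenitors of the telencephalon that was also named after its values were seen, was under the minimum mean of 10. Glutamatergic genes gave 1 higher and 0 lower of 12, the vesicular glutamate transporter Slc17a6 at 6149 ± 440 and 5612 ± 249 (log2 difference 0.13, limma unadjusted p = 0.043, adjusted p = 1.00). How far forebrain cells add to the Gad1, Gad2 and Slc32a1 counts was not tested.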

How the data were processed

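Midbrain RNA of 3 Lmx1b cKO and 3 control libraries was sequenced in read pairs. The submitters' processing notes name TopHat 1.0.14, Bowtie2 2.1.0, HTSeq 0.6.1p1, DESeq 1.10.1 and build GRCm38.p4, whereas the study's methods name DESeq2. Whether counting used strand is not given in the sources used here, so reads of genes that overlap on opposite strands cannot be told apart. The deposited table holds the mean signal per genotype, that is, reads counted per gene and divided by each library's size factor by the authors, and its ratio, log2 ratio, p-value and adjusted p-value columns hold the authors' own comparison and were not used.

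From these means, whole reads per library were recovered by a search over all read combinations of up to 30000 reads per group, and 26355 of 26852 genes gave exactly 1 answer in both groups. Genes beyond that limit have no library values. The recovered genes hold 69.5% of normalized counts, and size factors recomputed from them differed from those recovered by at most 0.125%. The 3 lines naming no gene, with 31.8% of mean counts, were left out. Symbols of 26693 genes, positions and exon lengths came from GENCODE on GRCm38, and promoter windows from RefSeq (GRCm38.p6).

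Reads were tested with limma 3.58.1 (voom weights, size factors, R 4.3.3) over the 16680 genes whose mean normalized count reached 10, with genotype as the only factor and Benjamini-Hochberg adjustment over all of them. Single values were also compared by an exact two-sided permutation test. The recovery and the fit were tested on simulated data. Named genes were the 9 members, Lmx1b, up to 4 genes per list with the smallest unadjusted p under 0.05, the 2 most strongly read genes of a list, and the 3 genes most like Gad1 or Gata3, of which the text gives those that bear on the members, and some of these are not reported here. Lyl1, Gata1, Gsx2 and the genes most like Tal2 were added after their values were seen. The members and lists were chosen with earlier results of these data known. Alternatives were other scalings, other minimum means, limma-trend with a pseudocount of 1 or 10, the deposited means alone, and leaving out each library.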

Additional observations from a re-analysis of the deposited data

How the results depend on the processing

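With 1 library left out at a time, the log2 differences ran from -0.011 to 0.087 for Gad1, 0.014 to 0.15 for Gad2, -0.12 to 0.044 for Slc32a1, -0.11 to 0.11 for Gata2, -0.086 to 0.083 for Gata3, -0.17 to 0.00032 for Tal1, -0.51 to 0.37 for Tal2, -0.63 to -0.25 for Helt and -0.25 to -0.14 for Sox14, so that Gad2, Helt and Sox14 kept their sign in all 6 of these fits. The Gata3 difference was -0.0026 with scaling to total reads, -0.0011 with upper quartile scaling, -0.0018 and -0.0019 in limma-trend with pseudocounts of 1 and 10, and -0.0079 from the deposited means, and that of Tal2 was -0.27 from the deposited means and -0.083 in limma-trend with a pseudocount of 1. Over the same fits 0 to 4 genes passed the adjustment, the 4 (Kdm5d, Uty, Ddx3y and Gm11702, the first 3 on the Y chromosome) without control a, and 333 (without control c) to 635 (without control a) genes had an unadjusted p under 0.05. In place of 0 genes, 466 passed at an unadjusted p under 0.05, and 303 did so with a minimum mean of 100, under which Helt and the hindbrain list could not be tested because too few reads were left. List medians with 1 library left out ran from -0.15 to 0.024 for peptides and calcium-binding proteins, -0.10 to -0.011 for GATA and TAL partners, -0.059 to -0.0048 for GABA handling, -0.061 to 0.081 for glutamatergic, -1.33 to -0.63 for serotonergic and -0.26 to -0.090 for mdDA genes. No paired analysis was possible because the deposited headers number the libraries 1 to 3 in each genotype only inside group means, and the recovered libraries cannot be tied to those numbers. Helt was read at 23 to 48 reads per library, the fewest of the 9 genes.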
